A study of Mus musculus with 4 samples.

Results

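The clustered histone genes are the protein-coding genes that the GENCODE M21 annotation of the mouse genome (GRCm38) names with the prefixes Hist1, Hist2, Hist3 or Hist4. All genes with such a symbol were taken whatever their level, which gave 67 members of the 34866 genes measured. They comprised 6 genes of the linker histone H1 and 18 H2A, 18 H2B, 12 H3 and 13 H4 genes of the nucleosome core. The Hist1 cluster on chromosome 13 held 54 of them, the Hist2 cluster on chromosome 3 held 10, the Hist3 cluster on chromosome 11 held 2 and Hist4 on chromosome 6 held 1.

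RNA-sequencing compared lymphoma B cells in which a Cre reporter had been switched on with lymphoma B cells of the same spleen in which it had not. In λ-MYC Tom+/ki mice, a human MYC transgene under immunoglobulin λ sequences drives B cell lymphoma, and a Cre knock-in allele permanently switches on the red protein Tomato (Tom) from the R26tdTom+/ki allele. Each of 2 mice, whose IgM+ Tom+ tumors are called #1 and #2, gave 1 library of Tom+ and 1 of Tom- spleen cells, all of them sorted as B220+ IgM+ B cells, which made 4 libraries in all. The Tom- cells carried the same transgene, Cre and reporter alleles as the Tom+ cells, no mouse without the transgene was analysed here, and the age of these 2 mice was not given in the sources used here. Tom reports past activity of Cre, so a Tom+ cell need not make Cre at the time of sorting.

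Replication-dependent histones are made in S phase, when new DNA has to be packed into nucleosomes. H2A, H2B, H3 and H4 form the protein core on which DNA is wound, and H1 binds the linker DNA. Most of these genes lack introns and lie in clusters, and their mRNAs usually end in a conserved stem-loop, bound by the stem-loop binding protein SLBP, instead of a poly(A) tail. Replication-independent variants such as H3.3 and H2A.Z come from genes elsewhere, have polyadenylated mRNAs and are made throughout the cell cycle. The libraries were labelled as polyA RNA, so the values below describe the histone RNA recovered by that selection and not the whole pool of histone mRNA.

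The stem-loops are shown because they are the 3′ ends by which most of these mRNAs are told apart from polyadenylated ones. They were taken from GENCODE M21 transcripts (GRCm38) of members described below, with the 6-base arms of the stem in capitals and up to 5 bases on each side, and all of them lie in the 3′ UTR. The 16-base element of Hist1h2ap lies at chr13:21833029-21833044 on the minus strand, that of Hist1h2ao at chr13:21810898-21810913 on the plus strand, and that of Hist1h4i at chr13:22040966-22040981 on the minus strand. The element of Hist1h1c lies at chr13:23739512-23739527, that of Hist1h2bb at chr13:23747203-23747218 and that of Hist3h2a at chr11:58955172-58955187, all on the plus strand.
Hist1h2ap: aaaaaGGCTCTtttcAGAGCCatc
Hist1h2ao: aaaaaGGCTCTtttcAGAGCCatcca
Hist1h4i: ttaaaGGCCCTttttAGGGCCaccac
Hist1h1c: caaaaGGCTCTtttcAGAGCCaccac
Hist1h2bb: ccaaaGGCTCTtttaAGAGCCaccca
Hist3h2a: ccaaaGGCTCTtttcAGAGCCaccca

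A stem-loop of this form (a 6-base stem that starts with GG and a 4-base loop, within 120 bases of the stop codon) was found in 46 members. The element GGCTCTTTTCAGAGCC was present in 26 of them, and the variant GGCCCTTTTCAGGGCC in 7. The distance from the stop codon had a median of 28 bases in the 10 H2B genes with an element and of 38 bases in the 11 H2A genes. In 15 members the annotated transcript ended within 16 bases of the stop codon, so that the element could not be seen, and 6 members with a longer 3′ end held no element of this form. Among those 6 were Hist2h2be, Hist1h2bq and Hist1h2bc, the 3 H2B genes with the highest levels. Hist2h3b and Hist1h1a were also among them, with annotated 3′ UTRs of 37 and 48 bases. In the H3 and H1 genes with an element, it began at least 24 bases after the stop codon. An element past the annotated end of these 2 genes could therefore not be seen.

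Levels are given as TPM (transcript abundance scaled to a fixed total per library), a measure per length of transcript. Comparisons between these genes are limited by the polyA selection, by reads that match several genes and by the length of the annotated transcript. Read numbers cannot be recovered from TPM. The depth of the libraries is therefore unknown, counting error has no interval here, and the limit of detection behind a value of 0 is not known. The B cell markers had summed levels between 2295 and 5948 TPM, with 0 of 8 listed at 0, and the T cell, myeloid and NK cell markers each summed to at most 8.77 TPM. Plasma cell markers summed to 13.0, 15.3 and 20.1 TPM in tumor #1 Tom-, tumor #1 Tom+ and tumor #2 Tom- cells and to 231 TPM in tumor #2 Tom+ cells, where Jchain, the joining chain of secreted antibodies, stood at 209 TPM. Erythroid markers summed to 21.5 and 17.6 TPM in tumor #1 and to 0.619 and 0.967 TPM in tumor #2, with Hba-a1 and Hba-a2 listed at 0 in every library, and stromal or endothelial markers, mostly Pecam1, to between 14.3 and 49.8 TPM. In bulk samples of this kind, fewer cells of a type and less RNA per cell cannot be told apart.

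Clustered histone RNA was scarce in all 4 libraries. The 67 members together summed to 117 TPM in tumor #1 Tom- cells, 117 TPM in tumor #1 Tom+ cells, 76.4 TPM in tumor #2 Tom- cells and 58.2 TPM in tumor #2 Tom+ cells, at most 0.0117% of a library. The 3 highest members of a library made up between 54.4% and 63.8% of its sum. The median member had a mean level of 0.377 TPM, 3 members had a mean above 10 TPM, and 15 were listed at 0 in every library. These 15 included 9 of the 18 H2A genes, 2 H2B, 2 H3 and 2 H4 genes, and 0 of the 6 H1 genes. Of the 21782 protein-coding genes measured, 28.4% were listed at 0 in every library, against 22.4% of the members. The filter for testing, 2 or more libraries with a TPM of 1 or more, was passed by 46.2% of protein-coding genes and by 25.4% of the members (17 of 67, namely 2 H1, 5 H2A, 8 H2B, 0 H3 and 2 H4 genes). Members that pass in this way can do so through the libraries in which they are high.

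H2A was the class with the highest summed level in 3 of the 4 libraries. The 18 H2A genes summed to 63.7, 59.4, 35.0 and 6.24 TPM in tumor #1 Tom-, tumor #1 Tom+, tumor #2 Tom- and tumor #2 Tom+ cells, an order kept for all values in 4 libraries below. The H2B genes summed to 21.4, 23.6, 22.7 and 20.0 TPM, and differed little between libraries. The H4 genes summed to 18.7, 22.9, 13.3 and 21.2 TPM. H1 and H3 were lower, and H3 stayed below 5 TPM in every library, although a nucleosome holds the 4 core histones in equal numbers. The H1 genes summed to 10.2, 7.40, 3.09 and 6.39 TPM, and the H3 genes to 2.69, 3.74, 2.40 and 4.31 TPM.

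**Figure D1:**
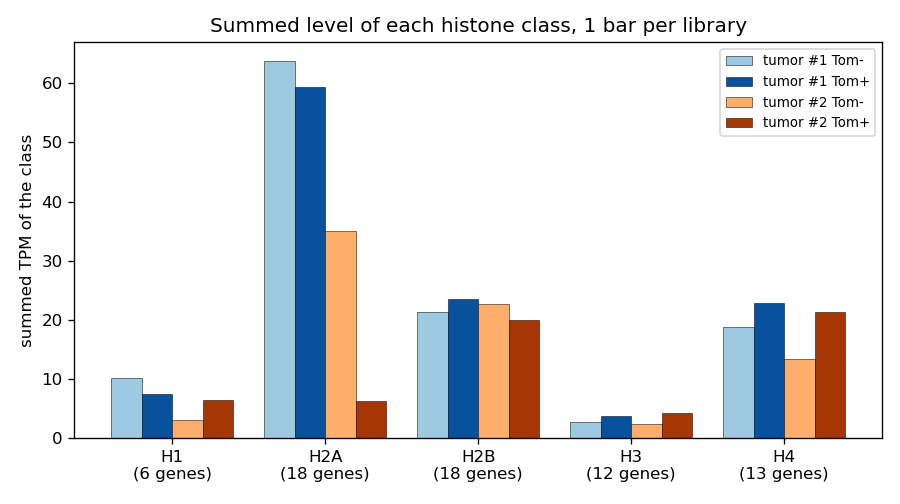
Summed TPM (y axis) of the 5 histone classes (x axis, with the number of genes), 1 bar per library and no error bars because a bar is 1 library. The H2A bar of tumor #2 Tom+ cells, at 6.24 TPM, stands far below the other 3 H2A bars (35.0 to 63.7 TPM), whereas the H2B bars lie between 20.0 and 23.6 TPM.

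In these polyA libraries the replication-independent genes of the same classes had far higher levels, except for H1. The ratios describe the RNA recovered by polyA selection and not the whole pool of histone mRNA. H3f3a and H3f3b, which both encode H3.3, together reached 219 to 454 times the summed level of the clustered H3 genes. H3f3a alone stood between 617 and 881 TPM. The H2A genes listed here as replication-independent (H2afz, H2afv, H2afx, H2afy and H2afj) reached 15.6 to 86.7 times the clustered H2A level. H2afz, which encodes H2A.Z, stood between 410 and 724 TPM. In the linker histones the order was the opposite, with H1f0 and H1fx at 0.0574 to 0.343 times the clustered H1 level.

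Among the H1 genes, Hist1h1c (ENSMUSG00000036181, chr13:23738808-23740367), which encodes the linker histone H1.2, had the highest level. It stood at 5.61, 6.05, 0.965 and 4.12 TPM. It was lowest in tumor #2 Tom- cells, and the ranges of Tom- and Tom+ libraries overlapped. Its log2 fold change of Tom+ to Tom- cells was 0.74 (SE 0.42, limma's adjusted p = 0.936). Hist1h1a, which encodes H1.1, stood at 2.30, 0.414, 0.965 and 1.57 TPM, and Hist1h1b, which encodes H1.5, at 1.66, 0.412, 0.480 and 0.447 TPM. Both were highest in tumor #1 Tom- cells. The testis-specific linker histone gene Hist1h1t was listed above 0 in 1 library, at 0.190 TPM in tumor #1 Tom- cells.

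The H2A level rested on a pair of near-identical genes. Hist1h2ap (ENSMUSG00000094777, chr13:21833026-21833507) stood at 31.4, 27.0, 29.4 and 0.000229 TPM. Hist1h2ao (ENSMUSG00000094248, chr13:21810465-21810944) stood at 26.5, 24.5, 0.112 and 4.82 TPM. In tumor #1 both were high in both libraries, whereas in tumor #2 Hist1h2ap was high in Tom- cells alone and Hist1h2ao was low in both libraries, more so in Tom- cells. The 2 genes encode the same 130-residue protein as 7 other members, and 92.9% of the 60-base stretches in the Hist1h2ap transcript, the length of a read, also occur in that of Hist1h2ao. Salmon divides reads that match several transcripts by estimation, so a change of either gene and another division of shared reads cannot be told apart. Summed, the pair gave 57.9, 51.5, 29.5 and 4.82 TPM. The summed plasma cell markers, at 231 TPM, were highest in the library in which the sum of the pair was lowest. Jchain alone gave 209 TPM of this. Xbp1 stood at 18.7 and 21.2 TPM in tumor #2 Tom- and Tom+ cells and Prdm1 at 0.105 and 0.570 TPM. Sdc1 stood at 0 and 0.428 TPM there, below its 1.95 and 1.78 TPM in tumor #1. The part of these markers in the sum of the pair was not tested.

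Some related genes that are no members were at their highest in tumor #2 Tom+ cells, where the pair was lowest. The pseudogene Hist1h2aj, with which 45.8% of the pair's 60-base stretches are shared, stood at 4.18, 7.23, 0 and 9.26 TPM, and the pseudogene Gm11336 at 0, 0, 0.132 and 3.42 TPM. Over all 22 measured genes that share a 60-base stretch with the pair, the sum was 113, 107, 50.2 and 33.0 TPM. On this wider sum, tumor #2 still lay below tumor #1 in both cell populations. The sum includes H2afx, the gene of the DNA damage variant H2A.X, at 45.4, 42.1, 14.1 and 10.4 TPM.

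The other H2A genes were low. Hist3h2a (chr11:58954685-58956830), an H2A gene of the small Hist3 cluster, stood at 2.63, 2.02, 1.8 and 0.788 TPM. In each tumor the Tom+ value was the lower one, but the ranges overlapped, and its log2 fold change of -0.46 (SE 0.25) had an adjusted p of 0.936 by limma. Hist1h2aa stood at 0.892, 2.41, 1.12 and 0 TPM and Hist1h2ag at 0, 1.07, 1.09 and 0 TPM, so that Tom+ cells were above Tom- cells in tumor #1 and below them in tumor #2.

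Among the H2B genes, Hist2h2be (ENSMUSG00000068854, chr3:96221119-96223738) was the highest member that shared no 60-base stretch with another gene. It stood at 2.47, 1.87, 6.74 and 8.66 TPM. Both libraries of tumor #2 lay above both libraries of tumor #1, and Tom- and Tom+ cells overlapped. Hist1h2bq stood at 3.02, 2.37, 6.6 and 2.77 TPM, so that both Tom+ libraries lay below both Tom- libraries, with a log2 fold change of -0.63 (SE 0.30, limma's adjusted p = 0.936). Of its 60-base stretches, 96.8% are shared with Hist1h2br, which stayed at or below 0.374 TPM. Hist1h2bc (chr13:23684199-23692908) stood at 4.82, 4.95, 0.557 and 2.68 TPM, lowest, as was Hist1h1c, in tumor #2 Tom- cells. Its log2 fold change was 0.64 (SE 0.40, limma's adjusted p = 0.936). Hist2h2bb, of the Hist2 cluster, stood at 1.91, 3.08, 3.60 and 1.67 TPM and lies within an overlapping annotated gene with which all of its stretches are shared. Hist1h2be had the narrowest range of the tested members, at 1.17, 1.48, 1.63 and 1.76 TPM.

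Hist1h2bb (ENSMUSG00000075031, chr13:23746734-23747241) was the only tested member with both Tom+ libraries above both Tom- libraries (1 of 17, 5.88%), an arrangement seen in 6.42% of all genes tested. Both Tom+ libraries lay below both Tom- libraries in 2 of 17 members (Hist1h2ap and Hist1h2bq), against 9.86% of all genes. Hist1h2bb was listed at 0 in both Tom- libraries and at 1.56 and 1.22 TPM in the Tom+ libraries of tumors #1 and #2. The gene passed the filter only through its Tom+ libraries, so a difference was fixed by the way it was chosen for testing. On the log2(TPM + 1) scale the difference was 1.25 (SE 0.25), with an unadjusted p of 0.0138 and an adjusted p of 0.936 by limma. It depends on the pseudocount, since one side is listed at 0, and gives no fold.

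No H3 gene passed the filter, and the highest was Hist1h3i at 0.474, 0.641, 1.72 and 0.599 TPM. Hist2h3c1 stood at 0.320, 0.645, 0.257 and 1.07 TPM and Hist1h3d at 0.604, 0.575, 0.425 and 0 TPM. The 12 H3 genes encode 2 distinct proteins, and in 8 of them more than 50% of the 60-base stretches occur in another gene. The values of single H3 genes were at or below 1.72 TPM in every library.

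Among the H4 genes, Hist1h4i (ENSMUSG00000060639, chr13:22040636-22041362) held most of the class. It stood at 16.5, 15.4, 10.7 and 18.2 TPM, and was the highest of all members in tumor #2 Tom+ cells. The Tom- and Tom+ ranges overlapped, and the log2 fold change was 0.31 (SE 0.28, limma's adjusted p = 0.936). Its 13-gene class encodes 1 protein of 103 residues, but 26.4% of the stretches of Hist1h4i occur in another gene, so most of its transcript can be assigned. Hist1h4n stood at 1.18, 3.30, 0 and 0 TPM, and 82.7% of its stretches are shared with Hist1h4m, which stood at 0, 0, 1.46 and 0.811 TPM. Each of the 2 genes was listed above 0 in the tumor in which the other was listed at 0. Hist1h4k, the third by mean level, was listed above 0 in tumor #1 Tom+ cells alone, at 2.33 TPM.

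**Figure D2:**
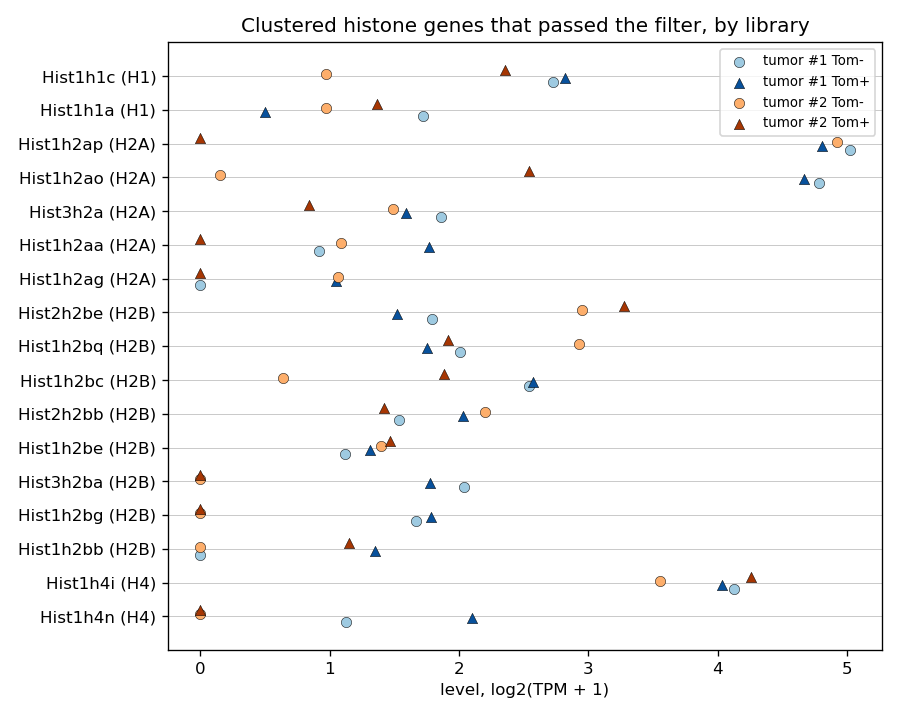
Level of the 17 members that passed the filter as log2(TPM + 1) (x axis), grouped by class (y axis), with circles for Tom- and triangles for Tom+ libraries and blue for tumor #1 and orange for tumor #2. Hist1h2bb has both triangles above both circles, and Hist1h2ap has 3 libraries near 30 TPM and tumor #2 Tom+ cells near 0.

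Members were also compared by their annotated 3′ ends, a feature the choice of members did not use. In 28 members a GENCODE transcript reached at least 100 bases past the stem-loop (or past the stop codon where no stem-loop was found), here called an extended 3′ end. All 28 were listed above 0 in at least 1 library, whereas 15 of the 39 members without an extended end were listed at 0 in every library. Those 39 include the 15 members whose annotated transcript ended within 16 bases of the stop codon, 8 of which were listed at 0 in every library. The median mean level was 0.416 TPM with and 0.267 TPM without such an end. A poly(A) signal (AATAAA or ATTAAA in the last 50 bases) was present at the extended end of 16 members, 7 of which passed the filter, Hist1h4i, Hist1h1c, Hist2h2be, Hist1h2bq and Hist3h2a among them. The filter was also passed by 2 of the 12 members with an extended end but no such signal, by 8 of the 39 members without an extended end, and by 17 of all 67 members. Transcripts with an extended end were also longer (median 1255 against 463 bases) and shared fewer 60-base stretches with other genes (median 24.9% against 70.0%), and the parts of these features cannot be told apart. The 2 highest members, Hist1h2ap and Hist1h2ao, had annotated 3′ UTRs of 57 and 85 bases and no extended end. Across the 67 members, which share libraries and sequence, Spearman's rho of the mean level was 0.28 with transcript length, 0.25 with 3′ UTR length and -0.16 with the share of 60-base stretches found in other genes.

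Many H2A and H2B genes stand head to head and share the DNA between their starts. There were 12 such pairs, with starts 176 to 306 bases apart (median 259.5 bases). Both genes had a mean level of at least 1 TPM in 1 pair, Hist1h2ao with Hist1h2bq. One gene did so in 5 pairs, and neither in 6. In the pair of Hist1h2ap with Hist1h2br the means were 21.9 and 0.0995 TPM, and in that of Hist2h2ac with Hist2h2be they were 0.0818 and 4.93 TPM. In 4 pairs the H2A gene was listed at 0 in every library while the H2B gene was not. These 4 H2A genes share 46.7% to 91.9% of their stretches of read length with other genes. Hist1h2ap shares 92.9% with Hist1h2ao, and Hist1h2br shares 88.2% with Hist1h2bq. The part of the division of shared reads in these contrasts within and between pairs was not tested.

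Promoter windows of 300 bases (250 before and 50 after the RefSeq transcription start, GRCm38.p6) were matched for 62 of the 67 members and searched on both strands, with overlaps between motifs allowed. The first motif was the octamer ATTTGCAT, bound by POU factors such as Oct-1. The second was TATAAA, the core of many promoters, and the last was CCAAT, bound by NF-Y. The octamer occurred in 7 of 18 H2A (38.9%) and 6 of 16 H2B promoters (37.5%), against 1.74% of all 32851 promoters, and in 0 of the H1, H3 and H4 promoters. The windows of head-to-head H2A and H2B genes, with starts 176 to 306 bases apart, can cover the same DNA. The same match can therefore be counted in both classes, whose shares are not independent. CCAAT occurred in 100% of the H1, H2A, H2B and H3 promoters and in 3 of 12 H4 promoters (25%), against 37.4% of all promoters. TATAAA occurred in 40% to 66.7% of the promoters of a class, against 13.6% of all promoters. A match describes the letters of the window and is not a bound site. The windows of 3 members are shown because Hist1h2ap and Hist1h4i led the H2A and H4 levels and Hist1h2bb held all 3 motifs, with the motifs in capitals (ATTGG is CCAAT on the other strand). The Hist1h2ap window is chr13:21833426-21833725 on the minus strand, that of Hist1h2bb chr13:23746484-23746783 on the plus strand, and that of Hist1h4i chr13:22041313-22041612 on the minus strand.
Hist1h2ap: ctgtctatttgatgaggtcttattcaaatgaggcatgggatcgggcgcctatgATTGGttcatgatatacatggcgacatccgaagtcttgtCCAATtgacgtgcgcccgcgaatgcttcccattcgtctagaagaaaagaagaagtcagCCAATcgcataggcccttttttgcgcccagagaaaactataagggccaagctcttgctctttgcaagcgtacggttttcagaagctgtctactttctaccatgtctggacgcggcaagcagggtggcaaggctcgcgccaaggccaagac
Hist1h2bb: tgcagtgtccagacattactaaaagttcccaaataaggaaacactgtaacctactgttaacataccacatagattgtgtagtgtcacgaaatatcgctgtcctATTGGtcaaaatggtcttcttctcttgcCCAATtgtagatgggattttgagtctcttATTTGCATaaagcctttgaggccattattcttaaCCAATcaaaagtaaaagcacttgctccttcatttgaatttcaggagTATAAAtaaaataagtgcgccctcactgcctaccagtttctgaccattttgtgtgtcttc
Hist1h4i: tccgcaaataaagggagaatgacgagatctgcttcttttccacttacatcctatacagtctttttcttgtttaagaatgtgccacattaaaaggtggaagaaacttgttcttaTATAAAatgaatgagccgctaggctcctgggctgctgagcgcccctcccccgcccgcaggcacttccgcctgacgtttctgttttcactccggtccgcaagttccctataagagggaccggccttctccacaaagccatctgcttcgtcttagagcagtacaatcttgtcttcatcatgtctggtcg
The window of Hist1h2ap held CCAAT but no octamer, and that of Hist1h4i held TATAAA alone.

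The sorting asks how Tom+ cells differ from Tom- cells of the same tumor. No clustered histone gene differed between them past an adjusted p of 0.05 by limma, and 0% of the 11339 genes tested did so. With an unadjusted p under 0.05 there was 1 of 17 members (5.88%, Hist1h2bb), near the 4.67% of all genes tested. Hist1h2bb, Hist1h1c, Hist1h2bc and Hist1h2be (4 of 17) were higher in Tom+ cells of both tumors, as were 21.6% of all genes. Hist1h2ap, Hist1h2bq and Hist3h2a (3 of 17) were lower in both, as were 29.5% of all genes. Of the remaining members, 7 had opposite signs in the 2 tumors and 3 had no difference in 1 tumor. The median log2 fold change was 0.02 for the members and -0.03 for all genes. The largest fitted value was that of Hist1h2ap at -2.57 (SE 1.33, limma's adjusted p = 0.936), which was -0.21 in tumor #1 and -4.92 in tumor #2. Its near-identical copy Hist1h2ao moved the other way in tumor #2 (2.39). A change of either gene and another division of shared reads cannot be told apart. The p-values rest on the spread between 2 mice with 1 residual degree of freedom per gene. This spread is moderated by a prior from all genes tested, with 2.21 degrees of freedom. An exact permutation test within 2 pairs cannot go below 0.5.

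**Figure D3:**
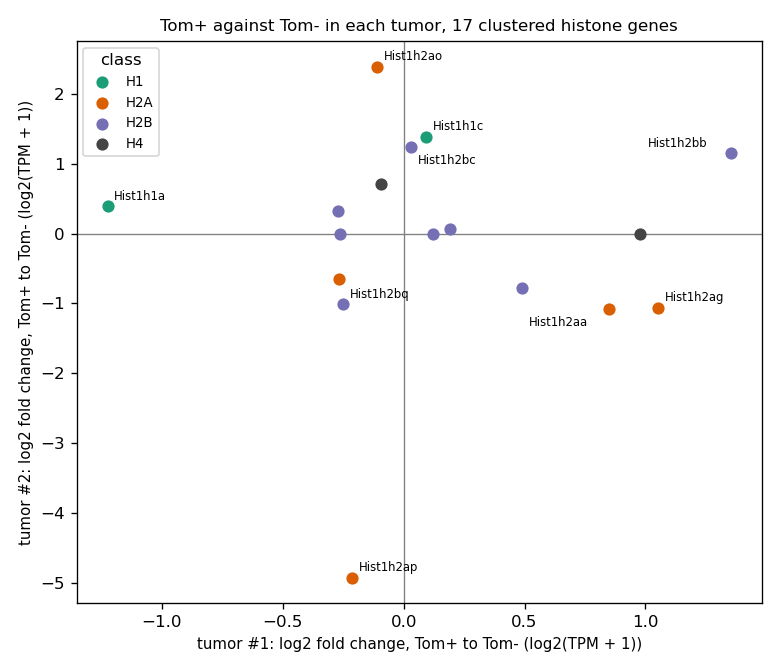
Log2 fold change of Tom+ to Tom- cells on the log2(TPM + 1) scale in tumor #1 (x axis) and tumor #2 (y axis) for the 17 tested members, colored by class, with labels where a change is at least 1. Hist1h2bb lies high on both axes, and Hist1h2ap and Hist1h2ao lie near 0 in tumor #1 and far apart in tumor #2.

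By class, the sums of H3 and H4 were higher in Tom+ than in Tom- cells of both tumors. The log2 ratio of Tom+ to Tom- sums was 0.66 ± 0.26 (SD, n = 2 tumors) for H3 and 0.48 ± 0.27 for H4. The H3 sum is made up of genes that did not pass the filter. The H4 sum rested on different genes in the 2 tumors. Hist1h4i was lower in Tom+ than in Tom- cells of tumor #1 and higher in tumor #2, and the 12 other H4 genes, with Hist1h4k and Hist1h4n the highest in tumor #1 Tom+ cells, summed to 2.25, 7.53, 2.58 and 3.09 TPM. The ratio was 0.29 ± 1.06 for H1, -1.29 ± 1.69 for H2A and -0.02 ± 0.22 for H2B, each within the spread between the tumors. Over all 67 members it was 0.00 in tumor #1 and -0.39 in tumor #2. Without Hist1h2ao and Hist1h2ap, left out after their values were seen, the sums were 58.8, 65.5, 47.0 and 53.4 TPM, and the log2 ratio was 0.16 in tumor #1 and 0.18 in tumor #2. By cluster, the Hist2 genes had 5.17, 6.80, 12.1 and 12.8 TPM, the Hist3 genes 5.74, 4.43, 1.8 and 0.788 TPM, and Hist4h4, the single H4 gene of Hist4, 0.287, 0.340, 0.611 and 0.511 TPM.

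Several members differed between the tumors, although each tumor is 1 mouse and the difference has no replicate check. Hist2h2be (1 of 17, and 0 of 17 after trimmed-mean scaling or quantile normalization) was at least 2-fold higher in tumor #2 in both Tom- and Tom+ cells, with log2 differences of 1.16 and 1.75, against 11.8% of all genes. Hist1h2ao, Hist3h2ba, Hist1h2bg and Hist1h4n (4 of 17, 23.5%) were at least 2-fold lower in tumor #2 in both, against 3.1% of all genes. Hist3h2ba stood at 3.10, 2.42, 0 and 0 TPM and Hist1h2bg at 2.18, 2.45, 0 and 0 TPM, so that 3 of the 4, with Hist1h4n, were listed at 0 in both libraries of tumor #2 and passed the filter through tumor #1 alone. The median difference of tumor #2 from tumor #1 was -0.38 in Tom- and -0.69 in Tom+ cells for the members and 0.23 and 0.19 for all genes. Trimmed-mean scaling brought the medians of all genes to 0 and -0.0035, so the members' values are to be read against the shift of all genes. The log2 ratio of tumor #2 to tumor #1 sums was 1.06 ± 0.22 (SD, n = 2 cell populations of the same mice) for the Hist2 cluster, -1.01 ± 0.35 for Hist1 and -2.08 ± 0.58 for Hist3. These ratios rested on few members. Without Hist2h2be, left out after its values were seen, the Hist2 genes summed to 2.70, 4.93, 5.32 and 4.10 TPM, and the log2 ratio was 0.98 in Tom- and -0.27 in Tom+ cells. Without Hist1h2ao and Hist1h2ap, the mean ratio of the Hist1 cluster was -0.50, and Hist3 holds 2 genes, 1 of them listed at 0 in tumor #2.

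**Figure D4:**
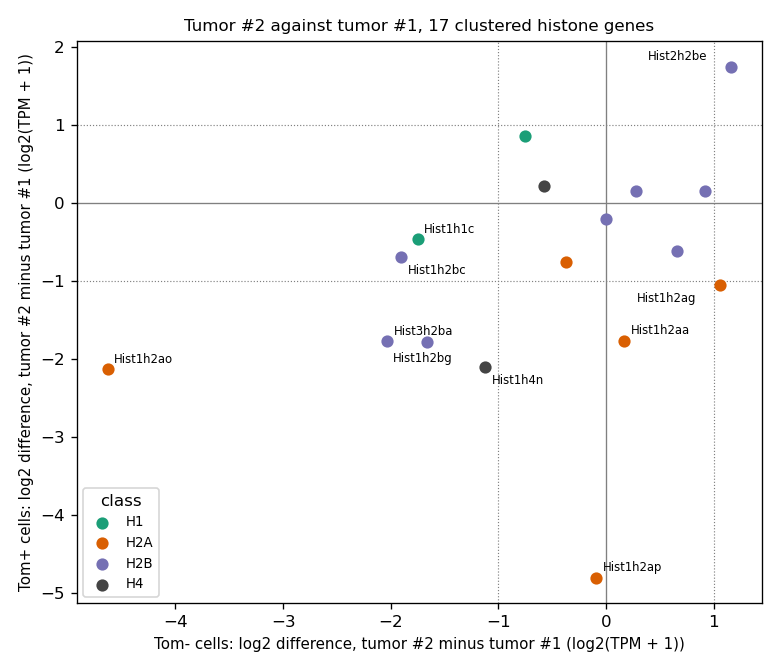
Difference of tumor #2 from tumor #1 in log2(TPM + 1) within Tom- cells (x axis) and Tom+ cells (y axis) for the 17 tested members, colored by class, with dotted lines at a 2-fold difference. Hist2h2be is the only point past the lines at the upper right, and Hist1h2ao, Hist3h2ba, Hist1h2bg and Hist1h4n lie past them at the lower left.

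The genes that make, process and handle histones were listed from general knowledge. Among 19 genes of histone gene transcription and 3′ end processing, all tested, 0 passed an adjusted p of 0.05 by limma and 2 had an unadjusted p under 0.05, with 4 higher and 6 lower in both tumors and a median log2 fold change of -0.03. Over all genes tested, 4.67% had an unadjusted p under 0.05, 21.6% were higher in both and 29.5% lower in both, with a median of -0.03, and these shares are also the background for the lists that follow. Lsm10, a subunit of the U7 particle that cleaves histone pre-mRNA, stood at 6.11, 11.2, 5.24 and 12.9 TPM, with both Tom+ libraries above both Tom- libraries (log2 fold change 0.97, SE 0.21, limma's adjusted p = 0.936). Pou2f1, which encodes Oct-1, stood at 14.3, 4.68, 28.6 and 16.5 TPM, lower in Tom+ cells of each tumor but with overlapping ranges (-1.10, SE 0.25, limma's adjusted p = 0.936). Slbp, which encodes the stem-loop binding protein, stood at 94.4, 123, 106 and 78.1 TPM, with opposite signs in the 2 tumors, and Npat, the activator of histone genes in S phase, at 7.63, 7.09, 9.60 and 8.26 TPM.

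Among the 9 of 11 replication-independent histone genes tested, 0 passed by limma at an adjusted p of 0.05 and 0 at an unadjusted p under 0.05, with 0 above and 5 below Tom- cells in both tumors (median -0.13, against 21.6% and 29.5% of all genes and a median of -0.03). The largest values were those of H2afv, a second H2A.Z gene, at 80.9, 70.1, 47.8 and 32.7 TPM (-0.37, SE 0.16), and H2afj at 15.2, 16, 19.1 and 10.8 TPM (-0.35, SE 0.29). Among 20 histone chaperone genes, likewise 0 passed at either threshold, with 2 of 20 higher and 7 of 20 lower in both (median -0.09). Ipo4, an importin that carries H3 and H4 to the nucleus, stood at 68.2, 54.3, 66.2 and 48.7 TPM and Ubn1, of the H3.3 depositing HIRA complex, at 26.2, 18.7, 23.1 and 21.1 TPM. Among 25 genes of S phase and DNA replication, 0 passed at either threshold, with 7 of 25 higher and 7 of 25 lower in both (median -0.02), again against 21.6% and 29.5% of all genes. Gins2 stood at 28.9, 22.2, 14.0 and 8.79 TPM and Gins1 at 36.4, 43.5, 16.7 and 23.3 TPM, both subunits of the replicative helicase complex. The S phase genes had a median difference of tumor #2 from tumor #1 of -0.82 in Tom- and -1.01 in Tom+ cells, below the medians of all genes (0.23 and 0.19). The other lists were below them too. Their medians were -0.67 and -0.82 for the replication-independent histones, -0.45 and -0.35 for the chaperones, and 0.08 and 0.09 for histone gene transcription and 3′ end processing.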

How the data were processed

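RNA-seq of sorted B cells from 2 mice gave 4 libraries. RNA was extracted with the PicoPure kit and libraries were made with NEBNext reagents and sequenced on a HiSeq2500 as 60-base single reads. Per the submitters' processing notes, CASAVA 1.8 and Salmon 1.9 were used on GRCm38. The authors trimmed adaptors with Cutadapt and deposited 1 table of TPM per gene. How transcripts were summed to genes, and the annotation release behind the table, is uncertain, so symbols, positions and transcripts come from GENCODE M21 on the same build, in which all 67 members were matched by gene identifier.

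The 11339 genes that reached 1 TPM in 2 or more libraries were tested as log2(TPM + 1) in R 4.3.3 by limma 3.58.1. Its terms were tumor and Tom status, with a variance trend and Benjamini-Hochberg adjustment over all genes tested (threshold 0.05). This scale understates changes of low genes. The authors' edgeR test needs counts, which are not used here. The tumor is a block because libraries of a tumor come from 1 mouse, and their deviations from the group means correlated across genes (Pearson's r = 0.63). The code of the test was checked on simulated data, which does not measure its power or error rate for these genes. Sums of TPM by class and cluster have no test. Python 3.11.15 with pandas 2.3.3 was used for tables and matplotlib 3.10.9 for plots.

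The members and lists were chosen with earlier results of these data known. Named genes were the 3 members of each class with the highest mean TPM, tested members outside Hist1, in each direction the 3 with the largest consistent change between Tom+ and Tom- cells and between tumors, those with an unadjusted p under 0.05, and the 2 largest changes in each related list. Other named genes, among them Hist1h1t, Hist1h2ag, Hist1h2bg, Hist1h2br, Hist1h4m, Hist2h2ac, Hist4h4, H3f3a, H2afz, H2afx, Slbp, Npat, Hist1h2aj and Gm11336, were chosen after their values were seen. Alternatives were 3 scalings (trimmed mean, quantile, and TPM over protein-coding nuclear genes without immunoglobulin genes), omission of the tumor block, of the filter or of the variance trend, a filter on means of 5 TPM or more, pseudocounts of 0.5 and 0.1, a robust prior, fold limits of 1.5 and 3, and each tumor left out. Some items of the design and of the marker lists are not reported here.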

Additional observations from a re-analysis of the deposited data

Results flagged for a closer look

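Hist1h2aa had a log2 fold change of Tom+ to Tom- cells of -1.08 in tumor #2 and 0.85 in tumor #1, and Hist1h2ag one of -1.06 in tumor #2 and 1.05 in tumor #1. Both are given because each tumor moved by at least 0.5 in the opposite direction, on values of at most 2.41 TPM. The difference between the tumors was not tested, since each tumor has 1 pair of libraries. Such opposite changes were seen in 500 of the 11339 genes tested (4.41%).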

How the results depend on the processing

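TPM hold no read depth, each tumor is 1 mouse, and 32 of the 67 members share over 50% of their 60-base stretches with other genes, so single-copy values are limited by how reads were divided. No member passed an adjusted p of 0.05 by limma under any alternative, and the smallest adjusted p over all genes ranged from 0.830 to 1. Without the tumor block (no pairing of libraries of a mouse), 0 of 17 members had an unadjusted p under 0.05 by limma (1.2% of all genes). With the block it was 1 of 17 (4.67%), and with a filter on means of 5 TPM or more 0 of 3 (4.44%). Other settings changed the members tested from 17 to 67 (no filter), 3 (means of 5 TPM or more) or 27 (TPM over protein-coding nuclear genes). An unadjusted p under 0.05 was reached by 2 of 67 without a filter (2.25% of all genes) and 2 of 27 with TPM over protein-coding nuclear genes (5.1%). Members higher in Tom+ cells of both tumors numbered 11 of 67 (10.7% of all genes), 0 of 3 (19.8%) and 8 of 27 (27.3%) in these settings, and members lower in both numbered 6 of 67 (12.4%) without a filter and 1 of 3 (31.6%) with means of 5 TPM or more. With either tumor left out, 8 to 9 of 17 members were higher and 6 to 8 lower in the remaining tumor, where shares of all genes were not computed. Members at least 2-fold higher in tumor #2 numbered 0 of 3 with a filter on means of 5 TPM or more (9.79% of all genes). They numbered 0 of 17 with trimmed-mean scaling (9.01%), with quantile normalization (7.05%) and at a 3-fold limit (share not computed). With TPM over protein-coding nuclear genes they numbered 2 of 27 (14.0%). Members at least 2-fold lower numbered 1 of 3 with a filter on means of 5 TPM or more (2.66% of all genes). Without a filter, with means of 5 TPM or more and with TPM over protein-coding nuclear genes, another set of genes was tested by construction. For the other settings the cause was not tested.

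The log2 ratio of tumor #2 to tumor #1 sums was -1.16 for all members, -0.60 for H2B, -0.57 for H4, 0.61 for Hist2 and -2.88 for Hist3 with quantile normalization, and -0.32 for H2B and 0.82 for Hist2 with trimmed-mean scaling. Without Hist1h2ao and Hist1h2ap, an alternative chosen after seeing the data, the ratio of Tom+ to Tom- sums was 0.17 for all members and 0.23 for Hist1, and that of tumor #2 to tumor #1 was -0.31 for all members and -0.50 for Hist1. In further alternatives chosen in the same way, the ratio of Tom+ to Tom- sums of H4 was 1.00 without Hist1h4i, and that of tumor #2 to tumor #1 sums of Hist2 was 0.36 without Hist2h2be. The log2 fold change of Tom+ to Tom- cells changed sign for Hist1h2aa with quantile normalization (0.0011), for Hist1h2ag with trimmed-mean scaling (0.065) and quantile normalization (0.28), and for Hist2h2be with a pseudocount of 0.1 (-0.0126).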
